A study of Homo sapiens with 6 samples.

Results

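The 250 genes described here are the protein-coding genes on human autosomes other than chromosome 19 whose symbol is ZNF followed by digits and at most 1 letter, out of 62703 genes in the count files. They were chosen by name, gene type and position alone, in a family proposed with earlier results of these libraries known, so the counts below are descriptions and no test of the list is given. ZNF genes encode proteins with C2H2 zinc fingers, short loops that hold a zinc ion and read DNA letters. Many of them also carry a KRAB box, which recruits the scaffold TRIM28 (KAP1) and with it the H3K9 methyltransferase SETDB1, the HP1 proteins and histone deacetylases, and this machinery is best known for silencing transposable elements. KRAB zinc finger genes multiplied by tandem duplication and many still lie in runs, most of all on chromosome 19, while other ZNF genes stand alone in the genome and include older regulators without a KRAB box.

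Total RNA was sequenced from 3 shControl and 3 shRNF20 libraries of MDA-MB-231, an established line of triple-negative breast cancer. The groups differ by their hairpin RNA, a control hairpin or one directed at RNF20, the ubiquitin ligase that marks histone H2B along transcribed genes. The labels give no hairpin sequence, no number of hairpins, no time after transduction, and no word on whether the cells were pools or clones or whether replicates were separate cultures. The series title ties RNF20 to CDK9 and the demethylase LSD1, so the comparison asked how RNF20 knockdown altered expression, here of a gene family that works largely through chromatin.

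RNF20 mRNA was 57.8, 58.5 and 58.0 CPM (counts per 1e+06 assigned counts, TMM scaled) in shControl and 14.1, 12.2 and 11.1 CPM in shRNF20. Gene counts totalled 21988826 to 29685306 per library. Of 5 markers of the line (VIM, CD44, KRT18, EGFR, AXL) all were expressed, with a summed level of 3280 to 3674 CPM in shControl and 2683 to 2701 CPM in shRNF20; 5 leukocyte markers summed to 0.68 to 1.07 and 0.35 to 0.77 CPM. The 4 luminal markers (ESR1, PGR, GATA3, FOXA1) summed to 6.40 to 16.1 and 11.1 to 12.8 CPM, and 6 fibroblast and endothelial markers to 18.7 to 21.3 and 36.7 to 38.3 CPM. Within these sums ESR1 (0.10 to 1.44 CPM in the group means), COL1A1 (13.2 to 30.2) and LUM (0.86 to 6.67) rose, and PECAM1 (5.12 to 0.66) fell. Of the markers of the line, CD44 (822 to 351 CPM), VIM (637 to 475) and EGFR (432 to 381) fell, and KRT18 and AXL did not pass. Mitochondrial transcripts took 0.934% to 1.38% of counts in shControl and 4.91% to 6.22% in shRNF20, and reads outside annotated exons 2.39% to 2.58% and 5.05% to 5.49%. Their part in the results was not tested, except that with mitochondrial genes left out 104 members rose and 29 fell. In that fit 28.3% of all genes tested rose and 30.1% fell.

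Of the 250 members, 219 had enough reads to test; the other 31 never exceeded 15 reads in a library, and 15 of them had none. By edgeR's quasi-likelihood test at an adjusted p under 0.05, 105 of the 219 (47.9%) rose in shRNF20 and 28 (12.8%) fell. Over all 15797 genes tested 28.7% rose and 29.8% fell, and over protein-coding genes 28.0% rose and 32.4% fell. The median log2 fold change was 0.34 for the tested members against -0.01 for all genes, and 157 of the 219 lay above 0. In bulk RNA a lower share of cells with a transcript and less of it per cell cannot be told apart. A change of at least 2-fold was found for 33 of the members that rose (15.1% of those tested) and 7 of those that fell (3.20%), against 10.5% and 11.7% of all genes tested. Only 2 tested members, ZNF879 and ZNF410, owed their test to shRNF20 alone. They reached the filter's level in all 3 libraries of that group and not of shControl, and both rose.

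The shift was seen in the level of the whole family in each library. Summed over the members, expression was 4626, 4561 and 4481 CPM with the control hairpin and 5581, 5545 and 5527 CPM after knockdown, so the groups did not overlap. The members took 0.442% to 0.460% of the counts in shControl and 0.556% to 0.558% in shRNF20. The 215 tested ZNF genes of chromosome 19 moved the same way with a larger share of rises, 137 (63.7%) against 8 that fell (3.72%), and a median of 0.60.

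**Figure D1:**
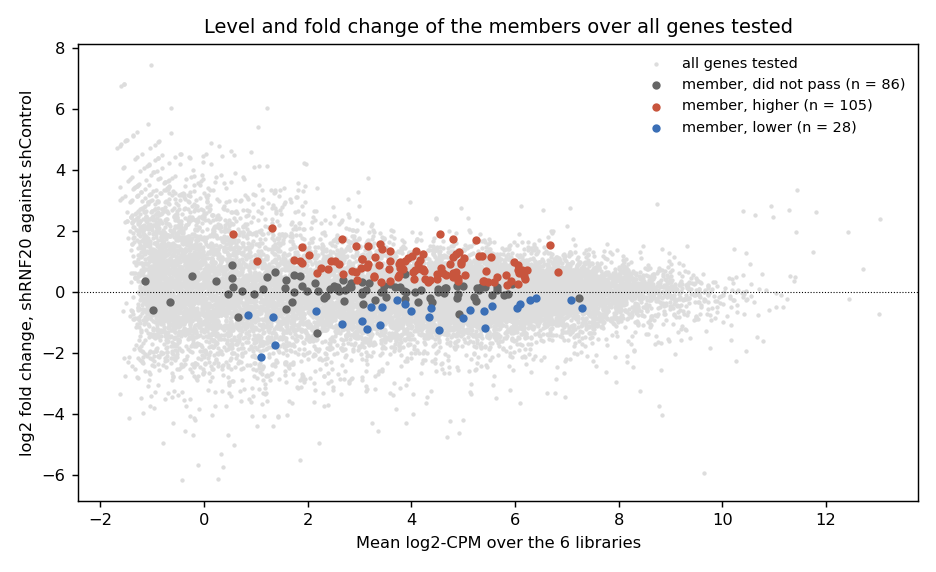
Mean log2-CPM over the 6 libraries (x axis) and log2 fold change of shRNF20 against shControl (y axis) for all 15797 genes tested (grey) and for the 219 tested members, coloured by the edgeR call. The 105 members that rose are spread over the middle and high levels, and the 28 that fell lie among them.

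Among the members the rises were not confined to weakly expressed genes. With all tested genes ranked by level in 4 equal parts, 3 of the 22 members in the lowest part rose, 57 of 115 in the second, 35 of 65 in the third and 10 of 17 in the highest. The same shares over all genes were 26.9%, 25.5%, 29.4% and 32.8%. The fold change varied little with level or transcript length across the 219 members: Pearson's r was 0.05 with mean log2-CPM and -0.01 with exon length, where members share libraries and are not independent. Reads were counted without strand, and a read over exons of more than 1 gene was set aside, so members that overlap others are undercounted. Of 110 tested members with such overlap 52 rose and 15 fell, and of 109 without it 53 rose and 13 fell.

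The run of ZNF genes at the end of the long arm of chromosome 12 was, by number of members, the largest cluster in which all of them rose, and its promoters are printed because these neighbours moved together. The windows are the 250 bases before each gene's start on its own strand, from RefSeq on GRCh38.p14, which held a promoter for 203 of the 250 members. They lie at chr12:132956307-132956556 (ZNF605, minus strand), chr12:132986117-132986366 (ZNF26, plus), chr12:133037259-133037508 (ZNF84, plus), chr12:133080673-133080922 (ZNF140, plus), chr12:133130275-133130524 (ZNF891, minus), chr12:133130377-133130626 (ZNF10, plus) and chr12:133181245-133181494 (ZNF268, plus). Capitals mark the matches, on either strand, to 1 of 7 short motifs named after the factors or boxes they are known for: ZNF143 (ACTACANNT), NRF1 (GCGCANGCG), CRE (TGACGTCA), ETS (CCGGAAGT), YY1 (AANATGGCG), CCAAT and TATAAA.
ZNF605: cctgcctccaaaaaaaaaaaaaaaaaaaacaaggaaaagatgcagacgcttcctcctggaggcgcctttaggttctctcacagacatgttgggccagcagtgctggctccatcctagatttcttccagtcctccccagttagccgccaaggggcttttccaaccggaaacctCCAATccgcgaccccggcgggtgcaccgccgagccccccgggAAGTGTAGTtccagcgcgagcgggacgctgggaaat
ZNF26: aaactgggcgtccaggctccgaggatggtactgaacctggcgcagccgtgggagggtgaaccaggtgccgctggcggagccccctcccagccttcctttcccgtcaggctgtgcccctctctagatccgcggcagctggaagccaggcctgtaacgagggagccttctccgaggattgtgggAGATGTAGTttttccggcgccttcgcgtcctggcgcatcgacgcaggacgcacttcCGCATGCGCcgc
ZNF84: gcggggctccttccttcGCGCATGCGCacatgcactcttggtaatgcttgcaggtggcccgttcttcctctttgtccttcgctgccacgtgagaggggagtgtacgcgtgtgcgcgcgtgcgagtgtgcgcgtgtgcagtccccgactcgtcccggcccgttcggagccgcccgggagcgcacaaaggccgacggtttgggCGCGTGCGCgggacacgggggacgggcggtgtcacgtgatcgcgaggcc
ZNF140: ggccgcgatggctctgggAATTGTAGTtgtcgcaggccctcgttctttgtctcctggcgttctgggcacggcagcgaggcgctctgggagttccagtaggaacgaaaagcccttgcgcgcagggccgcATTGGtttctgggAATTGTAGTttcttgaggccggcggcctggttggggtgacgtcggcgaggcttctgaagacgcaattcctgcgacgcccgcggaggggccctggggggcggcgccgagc
ZNF891: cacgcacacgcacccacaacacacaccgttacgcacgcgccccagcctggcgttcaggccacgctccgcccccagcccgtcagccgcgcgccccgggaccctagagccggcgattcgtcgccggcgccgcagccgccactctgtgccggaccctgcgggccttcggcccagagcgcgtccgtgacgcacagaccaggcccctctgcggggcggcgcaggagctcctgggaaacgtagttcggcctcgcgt
ZNF10: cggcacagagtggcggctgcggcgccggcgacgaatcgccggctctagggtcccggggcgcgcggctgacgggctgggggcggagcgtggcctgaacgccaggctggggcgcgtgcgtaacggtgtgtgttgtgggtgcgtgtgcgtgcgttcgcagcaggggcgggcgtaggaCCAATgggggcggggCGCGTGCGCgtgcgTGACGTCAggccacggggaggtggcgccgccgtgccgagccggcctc
ZNF268: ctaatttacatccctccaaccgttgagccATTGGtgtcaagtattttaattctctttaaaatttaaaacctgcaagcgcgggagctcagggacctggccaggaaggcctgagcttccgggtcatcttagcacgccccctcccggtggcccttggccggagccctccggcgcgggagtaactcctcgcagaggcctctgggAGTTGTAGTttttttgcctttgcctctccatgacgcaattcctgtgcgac

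The ZNF143 letters stood in 4 of these 7 windows (ZNF605, ZNF26, ZNF140 and ZNF268), the NRF1 letters in 3 (ZNF26, ZNF84 and ZNF10), CCAAT in 4 (ZNF605, ZNF140, ZNF10 and ZNF268) and the CRE letters in ZNF10. Neither the TATA box nor the ETS or YY1 letters occurred in any of them. ZNF891 and ZNF10 point away from each other, and their windows share 148 bases; the ZNF891 window held none of the motifs, since the matches of ZNF10 lie in the part not shared. In windows extended by 50 bases past the start (300 bases), the ZNF143 letters were in 9.36% of the 203 members' promoters and 3.89% of 27305 promoters of all genes. They stood in 10.9% of the 92 promoters of members that rose in 11.3% of the 71 of members that did not pass and in 1 of the 22 of members that fell. The ETS letters were in 18.5% of the promoters of members that rose, 15.5% of those that did not pass, 1 of 22 of those that fell and 4.44% of all promoters. TATAAA was in 3.45% of the members' promoters and 11.95% of all. The NRF1 letters were in 15.3% of the members' promoters and 8.05% of all, and CCAAT in 44.8% and 35.7%. The members' promoters also held more CG pairs, a median of 24 against 14 in all promoters. Their median share of G and C was 62.7% against 58.3%. The part of this composition in the motif shares was not tested. ZNF143, a transcriptional activator and itself an isolated member on chromosome 11, stood at 26.8, 26.4 and 29.6 CPM in shControl and 32.3, 30.9 and 31.0 CPM in shRNF20 (log2 fold change 0.19, edgeR adjusted p = 0.101). A match is a description of letters and not of binding.

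In this chromosome 12 cluster (132918308 to 133214831, GRCh38) all 7 members carry the KRAB pattern, between 7 and 24 fingers, and all 7 rose. Their summed level went from 81.9, 92.1 and 84.2 CPM in shControl to 154.3, 155.8 and 154.3 CPM in shRNF20. ZNF84 (ENSG00000198040.11), the most changed, stood at 23.3, 29.9 and 23.2 CPM in shControl and 59.3, 55.1 and 57.0 CPM in shRNF20 (log2 fold change 1.17 with SE 0.11, adjusted p = 7.12e-05 by edgeR). All 3 shRNF20 libraries lay well above the highest shControl library. ZNF10, also called KOX1, is the gene whose KRAB box is fused to dead Cas9 in CRISPR interference; it went from 4.30, 5.76 and 5.96 CPM to 11.4, 11.4 and 10.5 CPM (1.06, SE 0.16). ZNF26 went from 14.7, 13.4 and 12.7 CPM to 21.5, 24.0 and 22.6 CPM (0.74, SE 0.11).

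The log2 fold changes of ZNF140, ZNF891 and ZNF268 were 1.02, 0.90 and 0.68. ZNF140 and ZNF891 share part of their exons, 13.5% of the exon length of ZNF140, so reads there were counted for neither. ZNF605, at the edge of the cluster, changed least, from 19.3 ± 1.92 to 25.5 ± 1.91 CPM (SD, n = 3; log2 fold change 0.40, edgeR adjusted p = 0.0142). Its call was lost without shRNF20 replicate 2 (0.35, adjusted p = 0.0806) and without shRNF20 replicate 3 (0.37, adjusted p = 0.068), so 6 of the 7 rises held in every fit with a library left out.

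**Figure D2:**
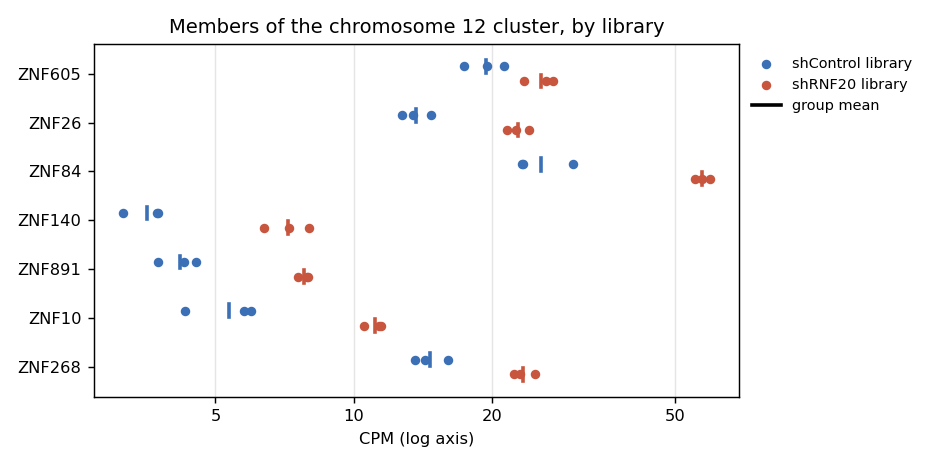
CPM on a log axis (x) of the 7 chromosome 12 members, in order along the chromosome from top to bottom, with 1 point per library and a bar at each group mean. For each gene the 3 shRNF20 points lie to the right of the 3 shControl points.

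Clusters were then set against isolated genes. A cluster was defined as 3 or more members with at most 250 kb between neighbouring gene bodies, and an isolated member had no other within 250 kb. Zinc finger genes of other families were not counted as neighbours, so an isolated member may still lie near some of them. By this definition 92 members lay in 17 clusters, 132 were isolated, and 26 formed pairs that were counted apart. Of 84 tested clustered members 49 rose (58.3%) and 8 fell (9.52%), with a median log2 fold change of 0.55. Of 113 tested isolated members 46 rose (40.7%) and 17 fell (15%), with a median of 0.19. Of 22 tested members of pairs 10 rose and 3 fell, with a median of 0.33.

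The difference between the medians of clustered and isolated members was 0.36 on the log2 scale, and no test was made of it. Computed for each shRNF20 library against the shControl mean it was 0.38, 0.43 and 0.33. The median level of clustered members was 3.36, 3.21 and 3.25 log2-CPM in shControl and 3.90, 3.84 and 3.89 in shRNF20. That of isolated members was 4.05, 4.07 and 3.98 log2-CPM in shControl and 4.27, 4.25 and 4.30 in shRNF20. Both groups of genes thus separated the libraries by hairpin. Among members whose exons overlap no other gene the difference narrowed to 0.20: 22 of 40 clustered members rose and 6 fell, and 27 of 59 isolated members rose and 5 fell. The higher share of falls in isolated genes was therefore not seen in that subset, where 15% of the clustered and 8.47% of the isolated members fell. The count of clustered members that fell, 8, was 5 without shRNF20 replicate 2 or 3. In those 2 fits 24.3% and 24.1% of all genes tested fell.

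**Figure D3:**
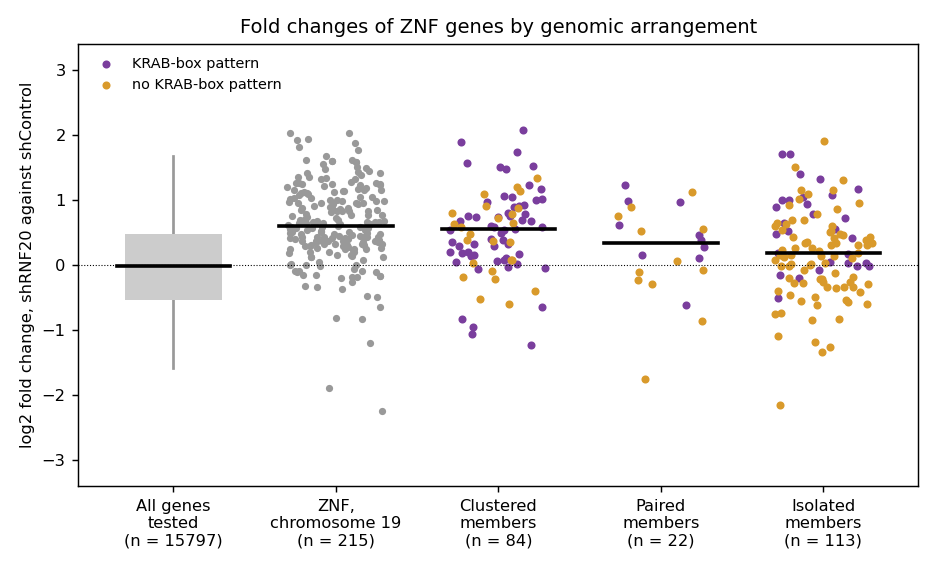
Log2 fold change of shRNF20 against shControl (y axis) for all tested genes (box, 25th to 75th percentile; line, 5th to 95th), tested ZNF genes of chromosome 19, and clustered, paired and isolated members, 1 point per gene, with a bar at each median. The bar falls from 0.55 in clusters to 0.33 in pairs and 0.19 in isolated members, and in the isolated group most points without a KRAB pattern surround 0.

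The KRAB box and the arrangement in the genome go together, and the members were split by both. The letters of the KRAB A box core were found in the coding sequence of 110 members, 98 of them tested; the pattern misses diverged boxes. Of the 98, 54 rose and 7 fell, with a median log2 fold change of 0.55, and of the 121 tested members without it 51 rose and 21 fell, with a median of 0.15. Isolated members with the pattern had the same median as clustered ones, 0.55 in both (14 of 29 rose and 1 fell when isolated, 35 of 59 rose and 5 fell when clustered). Members without it had medians of 0.47 in clusters (14 of 25 rose, 3 fell) and 0.13 when isolated (32 of 84 rose, 16 fell). The isolated members without a KRAB pattern were thus 84 of the 113, and held 16 of the 28 falls.

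The number of zinc fingers (a pair of cysteines 2 or 4 residues apart, then 12 residues, then a pair of histidines 3 to 5 residues apart) ranged widely. Members with 1 to 5 fingers rose in 27 of 61 cases and fell in 12, those with 6 to 10 rose in 42 of 75 and fell in 4, those with 11 to 15 rose in 23 of 50 and fell in 7, and those with 16 or more rose in 13 of 26 and fell in 3. None of the 7 tested members in which the pattern found no finger rose, and 2 fell (28.6%). For comparison, 28.7% of all genes tested rose and 29.8% fell. Across the 219 members Spearman's rho between finger number and fold change was 0.17, a weak relation given as a description.

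Neighbouring genes did not move in step as a rule. Over 78 pairs of adjacent tested members within clusters and pairs, the median absolute difference in log2 fold change was 0.60, against 0.63 over all 23871 pairs of tested members. In 23 of the adjacent pairs both genes rose and in 2 both fell. In 7 they moved in opposite directions: ZNF248 with ZNF25, ZNF205 and ZNF200 each with ZNF213, ZNF764 with ZNF747, ZNF692 with ZNF672, ZNF398 with ZNF425, and ZNF7 with ZNF517.

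**Figure D4:**
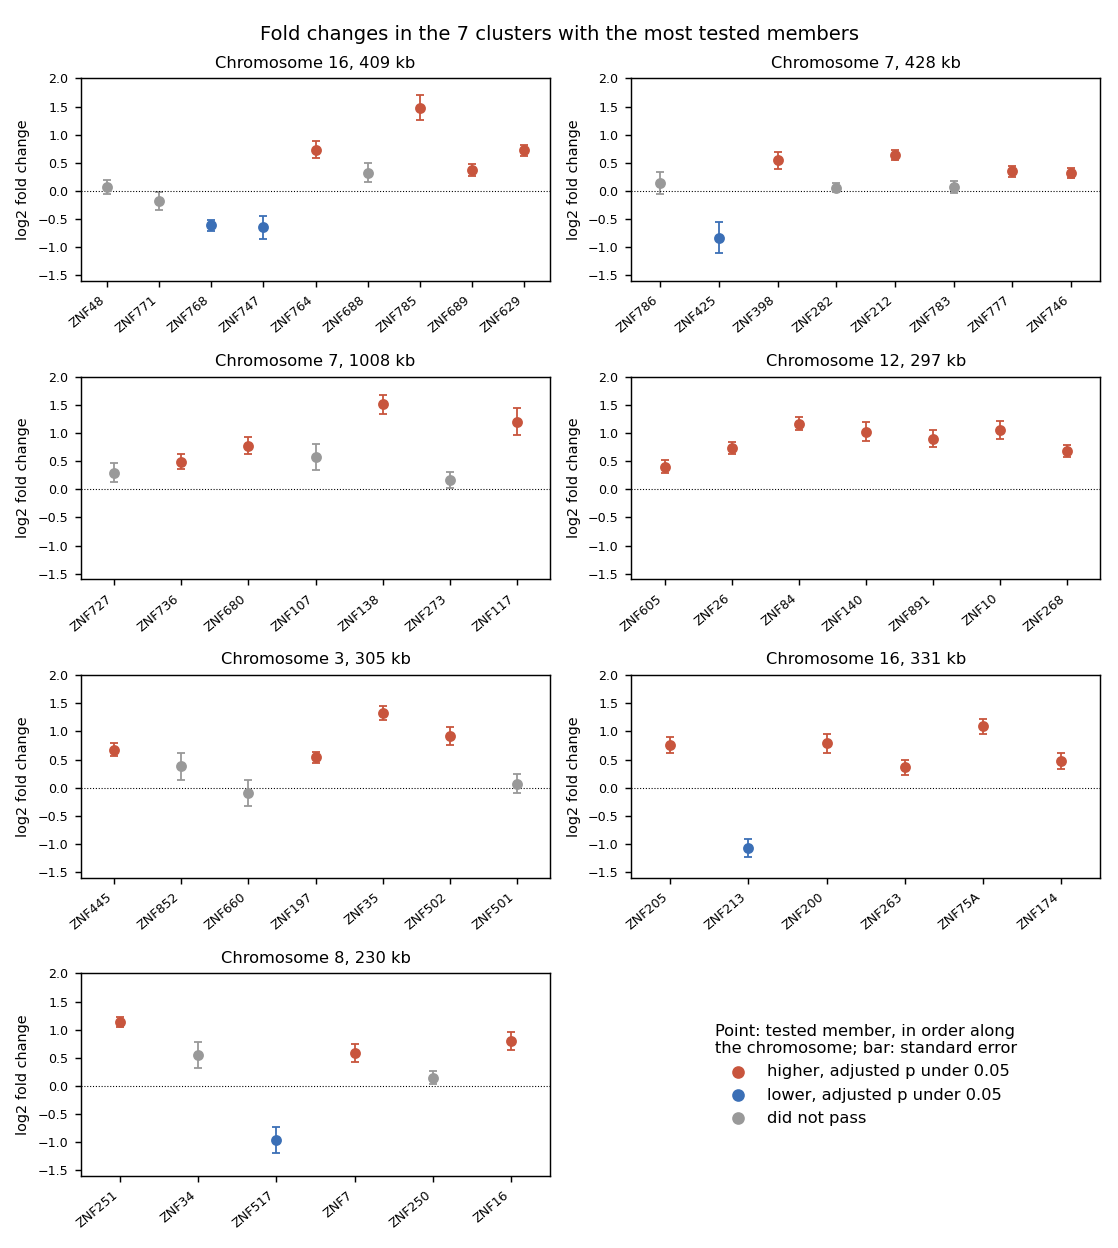
Log2 fold change with its standard error (y axis) of the tested members of the 7 clusters with the most tested members, in order along each chromosome (x axis), coloured by the edgeR call. The chromosome 12 panel is the one in which every point is past the threshold and above 0, and 4 panels hold genes that fell between genes that rose or did not pass.

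The chromosome 16 cluster at 3112560 to 3443553 shows such a contrast at short range. ZNF213 fell from 8.97, 7.42 and 8.81 CPM to 4.39, 4.04 and 3.62 CPM (log2 fold change -1.07 with SE 0.16, adjusted p = 0.000662 by edgeR). Its neighbours on either side rose: ZNF205 by 0.76 and ZNF200 by 0.79. ZNF75A, which rose most, went from 11.4, 8.68 and 9.24 CPM to 20.7, 22.0 and 19.96 CPM (1.09, SE 0.13), with 16.8% of its exon length shared with other genes. ZNF174, which pairs zinc fingers with a SCAN domain, rose by 0.47. ZNF263 was the least changed (0.36, edgeR adjusted p = 0.0388); that call was lost in 5 of the 6 fits with a library left out, at values of 0.25 to 0.41, and with the filter on low counts removed. ZNF597 had too few reads to test.

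The other large chromosome 16 cluster, at 30378106 to 30787202, was mixed, with 4 of 9 members higher and 2 lower. ZNF785 rose from 1.59, 2.25 and 1.96 CPM to 5.08, 6.45 and 4.64 CPM (1.48, SE 0.22), although 27.0% of its exon length overlaps another gene. ZNF629, with 19 fingers and no KRAB pattern, went from 49.1, 62.3 and 58.9 CPM to 90.4, 96.5 and 94.5 CPM (0.72, SE 0.10). In the middle of the same cluster ZNF768 fell from 38.4, 46.1 and 42.9 CPM to 28.9, 26.5 and 28.3 CPM (-0.61, SE 0.10), and ZNF747 fell by 0.64, with 47.8% of its exon length shared with other genes. ZNF48 was the least changed, at 0.07 (adjusted p = 0.64), and its sign turned without shControl replicate 1 (-0.04).

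Chromosome 7 held 35 members, of which 28 were tested, 15 rose and 4 fell. In the pericentromeric cluster at 63998874 to 65006684, 4 of 7 tested members rose and none passed in the other direction. ZNF138 went from 5.52, 4.30 and 4.003 CPM to 14.7, 13.2 and 11.7 CPM (log2 fold change 1.51 with SE 0.17, adjusted p = 0.000143 by edgeR), and ZNF680 from 10.7, 8.33 and 11.3 CPM to 19.4, 15.1 and 17.5 CPM (0.78, SE 0.15). ZNF117, which lies beside the endogenous retroviral gene ERV3-1 and shares exon sequence with it, rose by 1.20. ZNF273 was the least changed (0.17, adjusted p = 0.332). Members of this cluster are close paralogs, and reads that map to several places were not counted, so their levels are uncertain.

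The cluster near the end of chromosome 7 (149069643 to 149497817) moved less. ZNF212 went from 22.5, 23.6 and 22.4 CPM to 36.2, 36.8 and 33.4 CPM (0.64, SE 0.09, edgeR adjusted p = 0.000408). ZNF746, known as PARIS and as a repressor of the PGC-1alpha gene, went from 39.6 ± 3.25 to 49.6 ± 2.17 CPM (SD, n = 3; 0.32, edgeR adjusted p = 0.0126), a call lost without shRNF20 replicate 2 (0.28, adjusted p = 0.0709). ZNF282, also HUB1, known for binding the HTLV-1 long terminal repeat, was the least changed at 0.06. ZNF425 fell from 2.71, 4.18 and 2.47 CPM to 2.04, 1.41 and 1.79 CPM (-0.83, edgeR adjusted p = 0.0303). That call was lost without shControl replicate 2 (-0.59, adjusted p = 0.0683), shRNF20 replicate 2 (-0.72, adjusted p = 0.104) or shRNF20 replicate 3 (-0.86, adjusted p = 0.0785).

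In the smaller chromosome 7 clusters, of 3 members each, every tested member rose. ZNF12 (ENSG00000164631.19, 6688433 to 6706923) went from 12.8, 9.0 and 7.84 CPM to 38.5, 36.3 and 35.6 CPM (log2 fold change 1.89 with SE 0.17, adjusted p = 5.15e-05 by edgeR), and ZNF316 from 60.7, 52.1 and 43.9 CPM to 151, 158 and 144 CPM (1.53, SE 0.12). For both genes the lowest shRNF20 library lay far above the highest shControl library, where the rule for naming them required separate groups. ZNF853, the third member, had too few reads to test. In the other cluster ZNF789 went from 3.59, 1.70 and 3.36 CPM to 9.39, 10.4 and 9.14 CPM (1.74, SE 0.26), ZNF655, which encodes the Vav-interacting protein VIK, rose by 0.97 and ZNF394 by 0.65. ZNF789 and ZNF394 share exon sequence.

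On chromosome 3 the cluster at 44431720 to 44737083 had 4 of 7 members higher and none lower. ZNF35 went from 10.8, 8.45 and 9.50 CPM to 24.8, 23.3 and 24.2 CPM (log2 fold change 1.33 with SE 0.12, adjusted p = 5.05e-05 by edgeR), and ZNF502 from 7.31, 6.04 and 5.24 CPM to 12.005, 12.4 and 10.6 CPM (0.91, SE 0.16). ZNF445, a KRAB zinc finger known for protecting methylation at imprinted genes, rose by 0.68, and ZNF197, whose product binds the von Hippel-Lindau protein, by 0.54. ZNF501, next to ZNF502, was the least changed, at 0.07 (adjusted p = 0.735), and turned to -0.02 without shControl replicate 3.

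On chromosome 5 the ZNF354 group rose unevenly. ZNF879 had the largest rise of the family, from 1.29, 1.07 and 0.383 CPM to 4.50, 3.72 and 3.55 CPM (log2 fold change 2.08 with SE 0.37, adjusted p = 0.00157 by edgeR), at only 9 reads in the lowest shControl library. It reached the filter's level in all libraries of shRNF20 only, so its test was owed to the group where it is high. ZNF354B went from 5.62, 5.21 and 4.94 CPM to 16.6, 16.8 and 13.4 CPM (1.56, SE 0.14), ZNF354C rose by 0.81, and ZNF354A stood at 0.19 (adjusted p = 0.216). In the chromosome 8 cluster ZNF251 went from 17.9, 17.6 and 16.7 CPM to 40.1, 36.0 and 38.7 CPM (1.14, SE 0.09) and ZNF16 from 6.98, 6.55 and 5.71 CPM to 11.8, 9.40 and 12.3 CPM (0.80, SE 0.16). Between them ZNF517 fell from 10.9, 14.3 and 7.24 CPM to 5.43, 5.36 and 5.90 CPM (-0.96, SE 0.23), and ZNF250 was the least changed at 0.15.

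Isolated members held rises of the same size. ZNF778 (ENSG00000170100.14, chromosome 16, 89217703 to 89237071) went from 13.5, 12.4 and 13.4 CPM to 44.9, 41.0 and 42.8 CPM (log2 fold change 1.71 with SE 0.09, adjusted p = 7.94e-06 by edgeR), a 3.27-fold rise with little spread in either group. ZNF195 (chromosome 11, 3339261 to 3379222) went from 22.2, 14.96 and 16.4 CPM to 60.3, 58.4 and 56.2 CPM (1.70, SE 0.14). ZNF79 (chromosome 9, 127424374 to 127445372) went from 4.10, 3.87 and 3.88 CPM to 10.2, 10.6 and 12.9 CPM (1.51, SE 0.15). ZNF778 and ZNF195 carry the KRAB pattern and ZNF79 does not match it. ZNF410, a known activator of the gene for the remodeler CHD4, was named after its values were seen: it went from 0.609, 0.750 and 0.383 CPM to 2.19, 2.27 and 2.14 CPM, with 45.9% of its exon length shared with other genes. Like ZNF879, it reached the filter's level in all libraries of shRNF20 only, with 9 reads in the lowest shControl library. Its mean log2-CPM of 0.55 was below the level of 1 that the naming rule asked for.

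**Figure D5:**
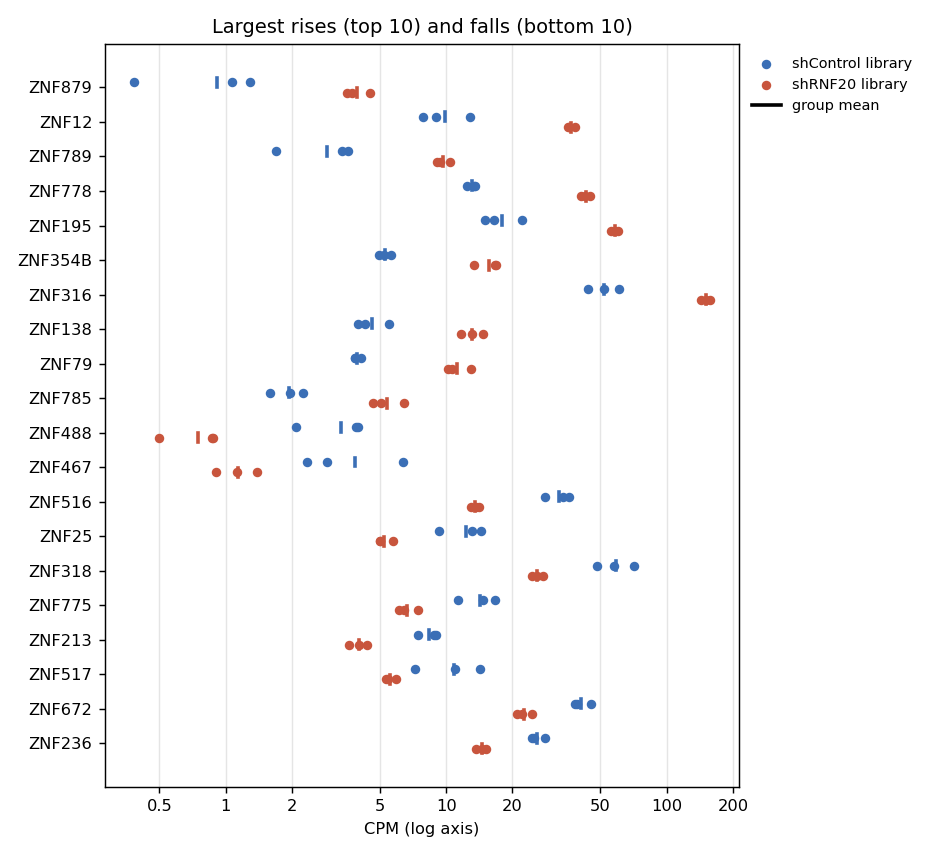
CPM on a log axis (x) of the 10 largest rises and the 10 largest falls among members that passed and had a mean log2-CPM of at least 1, with 1 point per library and a bar at each group mean. The groups are separate for every gene, which the rule for naming them required. ZNF467, ZNF488, ZNF789 and ZNF879 are among those with 1 shControl library apart from the other 2. ZNF879 reached the filter's level in all libraries of shRNF20 only.

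Of the 28 falls, 21 were of genes without a KRAB pattern, which made up 121 of the 219 tested members. Of those 121, 17.4% fell, a lower share than the 29.8% of all genes tested. ZNF488 (chromosome 10, 47365496 to 47384273), a repressor known from oligodendrocyte development, fell from 3.996, 2.09 and 3.92 CPM to 0.500, 0.863 and 0.879 CPM (log2 fold change -2.15 with SE 0.35, adjusted p = 0.00101 by edgeR). ZNF467, known for turning marrow stromal cells toward fat, fell from 2.34, 6.36 and 2.90 CPM to 1.39, 0.908 and 1.12 CPM (-1.75, SE 0.41), and without shControl replicate 2, the high library, by 1.21. ZNF516 (ENSG00000101493.11, chromosome 18, 76358190 to 76495190), which docks the CtBP and LSD1 corepressors on DNA, fell from 28.2, 36.1 and 33.7 CPM to 14.0, 12.98 and 13.7 CPM (-1.26, SE 0.12, edgeR adjusted p = 5.70e-05). ZNF318, known for the splicing choice between IgM and IgD in B cells, fell from 70.9, 58.0 and 48.2 CPM to 25.7, 24.5 and 27.5 CPM (-1.19, SE 0.14). In all of these the highest shRNF20 library was below the lowest shControl library, which the rule for naming them required.

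ZNF25, a KRAB zinc finger of a chromosome 10 cluster, fell from 9.28, 14.4 and 13.1 CPM to 5.002, 5.72 and 4.99 CPM (-1.23, SE 0.19). ZNF775 fell from 14.2 ± 2.74 to 6.67 ± 0.69 CPM (-1.09, SE 0.17), with 27.2% of its exon length shared with other genes. ZNF672 fell from 41.0 ± 3.77 to 22.5 ± 1.83 CPM (SD, n = 3; -0.87, SE 0.11), while its pair ZNF692 rose by 0.89. ZNF236, with 30 fingers, fell from 25.1, 28.1 and 24.6 CPM to 13.7, 15.2 and 14.5 CPM (-0.84, SE 0.10). ZNF516 and ZNF236 lie on chromosome 18, where 3 of 9 tested members fell, a share close to that of all genes, and none rose. No tested member fell on chromosomes 3, 4, 5, 11, 12, 17 and 22, where 10 of 17, 3 of 7, 6 of 8, 3 of 6, 8 of 12, 6 of 10 and 0 of 2 rose.

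None of the 5 members most abundant per exon length in shControl rose; in shRNF20 the second most abundant was ZNF316, at 25.9 CPM per kb, which did. ZNF217 (ENSG00000171940.14, chromosome 20, 53567065 to 53609907), an oncogene amplified in breast cancer whose product sits in CtBP and LSD1-CoREST complexes, had the highest level in shControl, 30.1 CPM per kb, and fell from 172, 227 and 159 CPM to 128, 128 and 126 CPM (log2 fold change -0.54 with SE 0.12, adjusted p = 0.00544 by edgeR). ZNF622, a factor of large ribosomal subunit assembly, stood at 28.0 CPM per kb and changed by 0.14 (adjusted p = 0.151). ZNF664 stood at 25.6 CPM per kb with a change of -0.22 (adjusted p = 0.0874), which passed without shControl replicate 1 (-0.28) or 2 (-0.31) and with no filter on low counts (-0.26). ZNF598, the ubiquitin ligase that senses collided ribosomes, stood at 18.1 CPM per kb and fell by 0.26 (edgeR adjusted p = 0.0185), a call lost without shRNF20 replicate 1 (-0.25, adjusted p = 0.0795) or 3 (-0.27, adjusted p = 0.0628). ZNF768 followed at 17.7 CPM per kb and fell, as given above.

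The genes of the machinery that KRAB zinc fingers act through moved both ways. Of 23 cofactor genes, all tested, 8 rose (34.8%) and 5 fell (21.7%), against 28.7% and 29.8% of all genes tested. Their median log2 fold change was -0.04. TRIM28, which binds the KRAB box, stood at 532, 444 and 506 CPM in shControl and 452, 474 and 435 CPM in shRNF20 (-0.12, edgeR adjusted p = 0.239), and at -0.22 (adjusted p = 0.0154) without shControl replicate 2. SETDB1, the H3K9 methyltransferase, went from 26.5 ± 2.96 to 32.6 ± 1.99 CPM (SD, n = 3; 0.30, edgeR adjusted p = 0.0394), a call lost in 5 of 6 fits with a library left out (0.22 to 0.32). DAXX, the histone H3.3 chaperone, fell from 85.8, 65.7 and 67.2 CPM to 39.1, 40.1 and 36.6 CPM (-0.92, SE 0.11). UHRF1, which reads hemimethylated DNA, fell from 156, 75.9 and 113 CPM to 72.4, 75.9 and 67.6 CPM (-0.68, edgeR adjusted p = 0.0254), and that call was lost in 4 of 6 fits with a library left out (-0.73 to -0.65 in those 4).

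Other zinc finger families were counted in the same fit. Of 61 tested genes named ZSCAN, ZKSCAN or ZBTB on autosomes, chromosome 19 included, 22 rose (36.1%) and 13 fell (21.3%), with a median log2 fold change of 0.22. The ZSCAN genes, which share the SCAN domain of some ZNF proteins, rose in 8 of 16 cases and fell in 1. The ZBTB genes, which carry a BTB domain, rose in 11 of 38 (28.9%) and fell in 10 (26.3%). Those ZBTB shares were close to the 28.7% and 29.8% of all genes tested.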

How the data were processed

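Raw read counts per gene of 6 libraries, deposited by the authors, were analysed. Per the submitters' processing notes, FastQC 0.12.1, STAR 2.7.11a and hg38 were used; no source used here gives the annotation release. The first strand column held 50.1% to 50.2% of the stranded counts, as in unstranded libraries, and the unstranded column was used. Reads naming no gene (20.9% to 24.1%) were left out.

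In R 4.3.3, edgeR 4.0.16 tested shRNF20 against shControl over all genes kept by filterByExpr (minimum count 10), with TMM scaling, the robust quasi-likelihood F-test and Benjamini-Hochberg adjustment over 15797 genes at 0.05. A standard error is the log2 fold change over the root of F. A gene "rose" or "fell" only past that threshold. Separate cultures are not stated for the replicates, and the p-values reflect just the variation among these 6 samples, possibly technical.

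Symbols came from a supplied name table, and positions, gene types, exon lengths and coding sequences from GENCODE 29 (GRCh38), which may not be the authors' release. Fingers and the KRAB pattern were counted in translated coding sequences, taking the highest count over transcripts. The members, the lists and the rules were chosen with earlier results of these data known. Named are the 10 largest rises and the 10 largest falls past the threshold (mean log2-CPM of at least 1, groups not overlapping), the 2 smallest p and the most and least changed member of the clusters with the most tested members (6 asked for, 7 with a tie), the 5 members highest per exon length in shControl, RNF20, TRIM28, SETDB1 and the 2 cofactors with the largest rise and fall. Of these cofactors, 2 are not reported here. Other genes named with values, to describe clusters or a contrast, were chosen after their values were seen.

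The alternatives tried were other scalings (RLE, upper quartile), other tools (limma-voom from limma 3.58.1, DESeq2 1.42.0), other filters (none, or CPM of at least 1 in 3 libraries), a replicate block, summed strand columns, no mitochondrial genes, shRNF20 libraries summed, other cluster definitions and each library left out. The scripts were tested on simulated data.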

Additional observations from a re-analysis of the deposited data

How the results depend on the processing

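No called member changed sign in any of the 16 alternative fits, and the members' median log2 fold change stayed between 0.30 and 0.37. With the 3 shRNF20 libraries summed to 1 sample, which leaves the spread to the shControl libraries, 42 members passed as higher and 9 as lower, of which 18 and 2 were clustered and 20 and 6 isolated. Among members whose exons overlap no other gene, a smaller set by construction, 22 clustered members were higher, and 27 isolated were higher and 5 lower, with a difference of medians of 0.20; the cause of that smaller difference was not tested. With each library left out in turn, 85 to 104 members were higher and 21 to 36 lower, 41 to 50 clustered members were higher and 5 to 10 lower, 39 to 45 isolated members were higher and 12 to 22 lower, and the difference of medians was 0.29 to 0.39. In these fits 38.6% to 47.5% of the tested members were higher, against 22.2% to 29.1% of all genes tested. The shares that were lower were 9.50% to 16.4% of the members and 24.0% to 30.8% of all genes. Of the 105 members that rose, 85 to 102 kept the call, and of the 28 that fell, 20 to 28. The sign turned for ZNF48 with summed strand columns (-0.057) and, with libraries left out, over a range of -0.044 (without shControl replicate 1) to 0.14, and for ZNF501 over -0.020 (without shControl replicate 3) to 0.13; neither had passed. The calls for ZNF598 with summed strand columns (-0.14) and for UHRF1 and SETDB1 without a filter (-0.72 and 0.26) were lost. The labels do not say whether replicate numbers pair the samples. Same-numbered libraries correlated at -0.016, 0.035 and 0.028 in their deviations from the group means, and different-numbered ones at -0.046 to 0.019. With 3 libraries per group these small values cannot decide it. With the replicate block 102 members were higher (46.6%) and 25 lower (11.4%), keeping 100 of the 105 and 25 of the 28. Over all genes 28.0% were higher and 28.6% lower with the block. The calls for ZNF425 (-0.80) and ZNF263 (0.36) were lost. Depth limits the least expressed tested members, which had as few as 4 reads in a library.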

Other observations

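Transcripts related to the members but outside the choice were also measured. Of 37 ZNF pseudogenes on the same autosomes 3 had enough reads to test, and all 3 were past the threshold. ZNF731P on chromosome 1 went from 12.3, 11.01 and 12.1 CPM in shControl to 26.1, 28.2 and 21.4 CPM in shRNF20 (log2 fold change 1.10, edgeR adjusted p = 0.000177). ZNF37BP on chromosome 10 went from 9.64 ± 1.52 to 15.6 ± 1.06 CPM (SD, n = 3; 0.69, edgeR adjusted p = 0.0034), and ZNF271P on chromosome 18, where no tested member rose, from 22.9 ± 3.57 to 31.3 ± 1.14 CPM (0.45, edgeR adjusted p = 0.0134). Reads mapping to several places were not counted, so the levels of pseudogenes and of their parent genes are uncertain.

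Of 35 antisense, divergent and intronic transcripts named after members 14 were tested, of which 2 rose (14.3%) and 4 fell (28.6%), against 28.7% and 29.8% of all genes tested. ZNF516-AS1 fell with ZNF516, from 0.542, 1.26 and 1.06 CPM to 0.154, 0.318 and 0.351 CPM (-1.77, edgeR adjusted p = 0.0108), and ZNF236-DT fell with ZNF236 by 1.11. ZNF213-AS1 rose by 0.61 while ZNF213 fell by 1.07; it shares exon sequence with ZNF205, which rose. Without strand, reads of a gene and its antisense partner cannot be told apart where they overlap. In GENCODE 29 the exons of ZNF516, ZNF236 and ZNF213 overlap those of no other gene. Of 12 ZNF genes on chromosome X 9 were tested, of which 1 rose (11.1%) and 2 fell (22.2%), against 28.7% and 29.8% of all genes tested. Their median log2 fold change was -0.09. ZNF449 rose by 0.54, and ZNF185 and ZNF75D fell by 0.68 and 1.16.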
